A study of Mus musculus with 8 samples.

Results

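Insulin-like growth factor 1 (IGF1), its receptor and 6 IGF-binding proteins were followed in the molar mesenchyme of young mice with and without a deletion of Ezh2. The 8 genes Igf1, Igf1r, Igfbp2, Igfbp3, Igfbp4, Igfbp5, Igfbp6 and Igfbp7 were chosen by name, as 8 of the 20926 genes in the table of values, and all 8 passed the filter on low values. RNA-seq had been carried out on total RNA of molar mesenchyme at postnatal (PN) day 3, in 4 libraries from Ezh2fl/fl mice (control) and 4 from Osr2KI-Cre;Ezh2fl/fl mice (Osr2-Cre;Ezh2 fl/fl, called mutant). The mice are labelled C57BL/6, and the animals of both groups carry the floxed Ezh2 alleles, so that the groups differ by the Cre allele. The study describes the strain background as mixed and used mice of either sex. Ezh2 is a histone methyltransferase of the Polycomb system, which keeps many developmental genes silent. Cre comes from the Osr2 locus and acts in mesenchymal cells, so that epithelial cells carried along in a dissection keep a working Ezh2. The controls carry no Cre, so that the presence of Cre at the Osr2 locus and the loss of Ezh2 cannot be told apart. By the labels, the epithelium was taken off before RNA was isolated.

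IGF1 is a secreted ligand that signals through the tyrosine kinase receptor encoded by Igf1r, and from there through insulin receptor substrates to the PI3K-AKT and MAP kinase pathways. IGF-binding proteins hold the ligand outside the cell, where they limit its access to the receptor, extend its life or bring it to the matrix, and proteases such as the pappalysins release it again. In teeth and bone the pathway is known for effects on growth and on the differentiation of matrix-forming cells. Igf1 is also a target gene of growth hormone, which acts through its own receptor and STAT5.

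Each value is a normalised read count with no correction for gene length, and 1 read was worth between 0.0129 and 0.019 of such a value. The estimated depth was 48.3 M to 68.8 M reads per library. Among replicates of a genotype, Pearson's r across genes lay between 0.976 and 0.994. Ezh2 itself lay below every control in each mutant library, at 35.2, 30.1, 23.2 and 36.0 against 55.0, 38.3, 39.6 and 39.0, although its difference did not pass the threshold in limma (adjusted p = 0.235). Markers of dental mesenchyme were present throughout, with summed values of 8757 to 10861 in the control and 7017 to 9903 in the mutant libraries, led by Col1a1. Transcripts of enamel-forming epithelial cells (ameloblasts) were present too, and their summed value over 5 markers was 15720 and 28535 in control libraries 3 and 4 and 11435 in mutant library 3, against 697 to 2374 in the other 5 libraries. The 4 libraries control 1, 3 and 4 and mutant 4 held both Xist, at 401 or more, and the Y-linked Ddx3y, at 31.2 or more, and so contained RNA of both sexes. Control 2 and mutant 1 had almost no Xist (0.373 and 0.414). Mutant 2 and 3 had almost no Ddx3y (0.0455 and 0.0424) with Xist at 1955 and 2648. Libraries with female RNA alone were thus found only in the mutant group. The labels do not say whether a library is 1 animal or a pool, and p-values therefore measure the spread between these libraries. In bulk RNA, fewer cells of a type and less RNA per cell cannot be told apart.

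The members lie on 6 chromosomes of the GRCm38 genome. Igf1 is at chr10:87858265-87937042 (plus strand), where the antisense gene Igf1os lies within it without sharing exons, and Igf1r at chr7:67952827-68233668 (plus strand). Igfbp3 is at chr11:7206086-7213923 (minus strand), Igfbp4 at chr11:99041244-99054392 (plus strand), Igfbp6 at chr15:102144362-102149511 (plus strand) and Igfbp7 at chr5:77349240-77408041 (minus strand), while Igfbp2 and Igfbp5 share chromosome 1.

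The levels of the 8 genes were first compared with each other, per kilobase of the exons annotated for each gene. Igfbp5, a binding protein of bone and connective tissue that also binds matrix, had the highest level, 308 ± 70.8 per kilobase in the control (SD, n = 4) and 224 ± 32.2 in the mutant libraries. By this measure it ranked 102 of 14510 genes in the control and 156 in the mutant group. Igfbp3, the main IGF carrier of serum, followed with 156 ± 40.6 and 129 ± 37.2, and Igfbp4, a binding protein that inhibits IGF action until it is cleaved, with 125 ± 7.95 and 149 ± 24.9. Igfbp7, which binds IGFs weakly and is found in vessel walls and matrix, lay at 73.4 ± 5.86 and 71.1 ± 7.51. Igfbp2 lay at 27.5 ± 15.0 in the control and 15.9 ± 3.52 in the mutant group. The ligand and its receptor were lower than these carriers, Igf1 with 12.0 ± 3.79 and 11.6 ± 4.07 and Igf1r with 10.7 ± 0.432 and 10.9 ± 0.946 per kilobase.

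Igfbp6, whose product prefers IGF2 over IGF1, was the lowest and ranked 12141 of 14510 genes in the control. Its level was 1.15 ± 0.180 per kilobase in the control and 1.28 ± 0.169 in the mutant group, from 64 to 116 estimated reads per library. The order of these levels was the same in all 8 libraries for 5 of the 7 neighbouring pairs. It was not for Igfbp3 and Igfbp4, where Igfbp3 was the higher in 5 of 8 libraries, nor for Igf1 and Igf1r, where Igf1 was the higher in 5 of 8. The ranges over libraries overlapped for these pairs, and also for Igfbp5 with Igfbp3 and for Igfbp2 with Igf1. Exon lengths were the union over all annotated transcripts, 16791 bases for Igf1r and 9904 for Igf1, so that a level per kilobase is a low estimate where the longest transcripts are not in use.

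**Figure D1:**
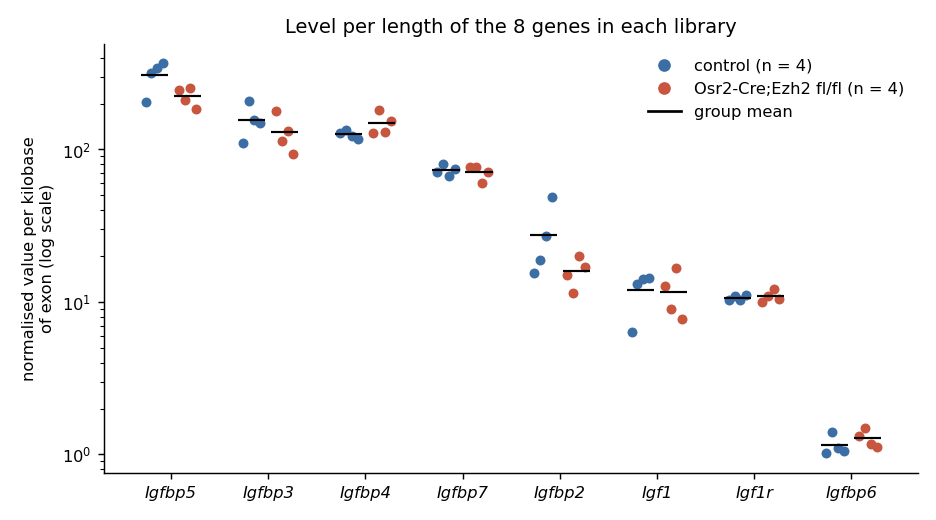
Normalised value per kilobase of exon (log scale) of the 8 genes, ordered by their control mean, with a point for each of 4 control libraries and 4 of the mutant (Osr2-Cre;Ezh2 fl/fl) genotype and a line at the group mean. Igfbp5, Igfbp3, Igfbp4 and Igfbp7 lay at 60.5 or above in every library, Igf1 and Igf1r between 6.33 and 16.8, and Igfbp6 near 1.

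As a share of the summed level per kilobase of the 6 binding proteins, Igfbp5 made up 44.2% ± 4.70 in the control and 37.9% ± 3.33 in the mutant libraries (SD, n = 4). Igfbp4 made up 18.6% ± 3.82 and 25.4% ± 5.38, and Igfbp3 22.4% ± 3.42 and 21.6% ± 4.46. Igfbp2 contributed between 1.94% and 6.46% and Igfbp6 at most 0.252% in any library. The sum itself was 691 ± 109 in the control and 590 ± 52.3 in the mutant group. These shares cannot vary independently of each other and were not tested.

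Many IGF-binding proteins hold a short run of cysteines near the amino terminus, in the domain that contacts the ligand. The coding sequence of this signature (glycine, cysteine, glycine, cysteine, cysteine, any 2 residues, cysteine) was searched in the annotated coding sequence of each of the 6 genes and was present in 4 of them, Igfbp2, Igfbp3, Igfbp4 and Igfbp5. It was not found in Igfbp6 or Igfbp7. Each stretch lies within a coding exon of the GRCm38 genome, at chr1:72824778-72824801 on the plus strand for Igfbp2, chr11:7213566-7213589 on the minus strand for Igfbp3, chr11:99041650-99041673 on the plus strand for Igfbp4 and chr1:72873966-72873989 on the minus strand for Igfbp5. They are shown to let the members be compared base by base, 5′ to 3′ on the coding strand, with the 4 cysteine codons in capitals.
Igfbp2: ggcTGCggcTGCTGCtccgtgTGC
Igfbp3: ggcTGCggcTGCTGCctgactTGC
Igfbp4: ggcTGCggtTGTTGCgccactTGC
Igfbp5: ggcTGTggcTGCTGCatgactTGC

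The mutant group was compared with control for each of the 8 genes, as the difference of mean log2(value + 1), mutant minus control. None of the 8 genes passed an adjusted p of 0.05 in limma, against 2.07% of the 14854 genes tested, 1.56% with a rise and 0.512% with a fall. At an unadjusted p under 0.05, 1 of the 8 (Igfbp5) was found, against 13.1% of all genes. In 0 of the 8 were the values of the genotypes without overlap, against 8.53% of all genes. The median log2 fold change was -0.044 over the 8 genes and 0.013 over all genes tested, and 3 of the 8 differences were positive. The counts are those of the fit with every library weighted alike. With weights estimated per library, 4 of the 8 passed, in a fit that gave mutant library 4 a weight of 9.66 and the other 7 libraries 0.206 to 2.31. That fit called 2165 genes higher and 1875 lower of the 14854 tested, far more than the fit with equal weights.

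The ligand Igf1 varied more between libraries of a genotype than between genotypes. Its values in control libraries 1 to 4 were 62.7, 129.8, 139.7 and 142, and in mutant libraries 1 to 4 they were 126, 89.6, 166 and 76.7. Control library 1 was the lowest and mutant library 3 the highest of the 8, so that the mutant values covered most of the control range. The means were 118 ± 37.5 and 115 ± 40.3 (SD, n = 4), and the log2 fold change was -0.040 with a 95% interval of -0.72 to 0.64 (limma adjusted p = 0.979). The interval leaves room for any difference from 0.608-fold to 1.56-fold. The sign of this difference turned when any of 5 libraries was left out (control 2, 3 or 4 or mutant 2 or 4), over a range of -0.32 to 0.13. A log2 difference of 1.41 would have been needed to pass the adjusted threshold at this spread.

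The receptor Igf1r was the steadiest of the 8 genes. Its values were 173, 184, 173 and 187 in the control and 168, 183, 205 and 175 in the mutant libraries, from 8854 to 14461 estimated reads. The highest library exceeded the lowest by 1.22-fold, and the groups overlapped over most of their range. The log2 fold change was 0.025 with an interval of -0.14 to 0.19 (limma adjusted p = 0.947), which leaves room for 0.906-fold to 1.14-fold. For Igf1r, then, a log2 difference beyond 0.35 would have passed the threshold at the observed spread.

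Among the binding proteins, Igfbp5 had the smallest p of the 8 genes. Its values were 1235, 1916, 2047 and 2199.9 in the control and 1475, 1269, 1529 and 1108 in the mutant libraries. Control library 1 fell among the mutant values, while the other 3 controls lay above all 4 of them. The means were 1849 ± 425 and 1345 ± 194 (SD, n = 4), a log2 fold change of -0.44 ± 0.19 (SE) with an interval of -0.86 to -0.013. The difference did not pass the adjusted threshold (limma p = 0.0446, adjusted p = 0.358; two-sided exact permutation p = 0.114, where 0.0286 is the smallest that 4 against 4 allows).

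Igfbp2, a binding protein of fetal tissues whose product can also bind integrins, spread more widely in the control than in the mutant libraries. The control values were 28.6, 34.5, 50.0 and 90.2 and the mutant values 27.9, 21.3, 36.8 and 31.4. Only control libraries 3 and 4 lay above all mutant values. The means were 50.8 ± 27.8 and 29.3 ± 6.50, and the log2 fold change of -0.66 had an interval of -1.37 to 0.055 (limma adjusted p = 0.438; two-sided exact permutation p = 0.171). Without control library 4 the log2 fold change was -0.34, a change of more than 1.5 times.

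Igfbp3 was 344, 653, 488 and 465 in the control and 563, 354, 411 and 290.1 in the mutant libraries. The lowest library was a mutant and the highest a control, but the remaining 6 interleaved. The log2 fold change was -0.27 with an interval of -0.78 to 0.24 (limma adjusted p = 0.726). It was -0.12 without control library 2, -0.13 without mutant library 4, -0.43 without control library 1 and -0.45 without mutant library 1. Igfbp4 ran the other way, with 565, 596, 539 and 514 in the control and 565, 803, 578 and 677 in the mutant. Mutant libraries 2 and 4 lay above every control and the other two within the control range. Its log2 fold change was 0.23 with an interval of -0.033 to 0.50 (limma adjusted p = 0.468; two-sided exact permutation p = 0.143). Without mutant library 2 it was 0.13.

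Igfbp7 was 85.7, 97.6, 81.0 and 90.5 in the control and 92.5, 92.2, 73.1 and 85.9 in the mutant libraries, a log2 fold change of -0.048 (-0.26 to 0.16; limma adjusted p = 0.916). Like Igf1r, it varied little, by 1.33-fold from the lowest to the highest library. Exons of Igfbp7 overlap those of Polr2b on the opposite strand, and the counting is not stated to use strand, so that reads of these genes may be shared. Igfbp6 was 1.13, 1.57, 1.22 and 1.18 in the control and 1.46, 1.67, 1.30 and 1.25 in the mutant, a log2 fold change of 0.091 (-0.14 to 0.32; limma adjusted p = 0.831). At so low a value the added 1 of the log scale understates any fold change of Igfbp6.

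In an alternative fit with library weights, in which each library counts by how closely it follows its group, Igf1 (-0.64, limma adjusted p = 0.0280), Igfbp3 (-0.78, 0.00660), Igfbp4 (0.28, 0.0122) and Igfbp5 (-0.75, 0.00215) passed the threshold. That fit also called 2165 genes higher and 1875 lower of the 14854 tested, and it gave mutant library 4 a weight of 9.66.

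**Figure D2:**
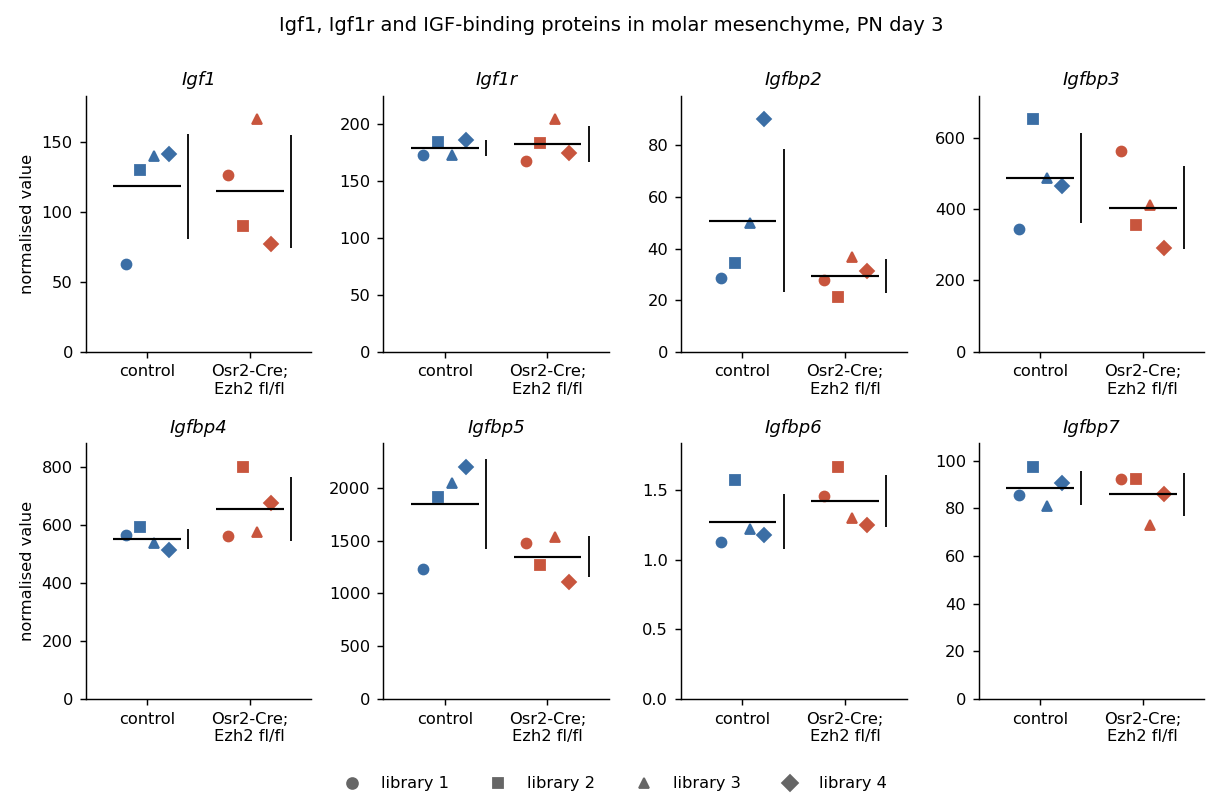
Normalised value (axes from 0) of each of the 8 genes in molar mesenchyme of control and mutant (Osr2-Cre;Ezh2 fl/fl) mice, with marker shape for the library number, a horizontal line at the group mean and a vertical line for ± 1 SD (n = 4). The genotypes overlap in all 8 panels. For Igfbp5, only control library 1 (1235) lies among the mutant values.

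Igfbp2 and Igfbp5 are neighbours on chromosome 1, where they face each other tail to tail. Igfbp2 (ENSMUSG00000039323, GRCm38) lies at chr1:72824503-72852474 on the plus strand and Igfbp5 (ENSMUSG00000026185) at chr1:72857932-72874884 on the minus strand, with 5457 bases between their ends. Both had lower means in the mutant group, and over the 8 libraries their log2 values had a Pearson r of 0.79, the highest of the 28 pairs of members. Pairs on different chromosomes came close, Igf1 with Igfbp5 at 0.76 and Igfbp3 with Igfbp5 at 0.75. Each r describes 8 libraries with a common scaling and dissection and was not tested. The 250 bases before each RefSeq start were searched on both strands for the letters TATAAA (the TATA box), GGGCGG (the GC box), CACGTG (an E-box) and CCAAT (the CCAAT box), in the RefSeq windows on GRCm38.p6. They are shown because the members stand side by side and differ in these letters, with matches in capitals, at chr1:72824230-72824479 on the plus strand for Igfbp2 and at chr1:72874866-72875115 on the minus strand for Igfbp5.
Igfbp2: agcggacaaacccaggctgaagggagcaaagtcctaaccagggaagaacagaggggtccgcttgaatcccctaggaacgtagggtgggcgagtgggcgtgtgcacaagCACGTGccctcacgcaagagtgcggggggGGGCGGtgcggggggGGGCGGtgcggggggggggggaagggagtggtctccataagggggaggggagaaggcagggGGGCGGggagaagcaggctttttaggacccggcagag
Igfbp5: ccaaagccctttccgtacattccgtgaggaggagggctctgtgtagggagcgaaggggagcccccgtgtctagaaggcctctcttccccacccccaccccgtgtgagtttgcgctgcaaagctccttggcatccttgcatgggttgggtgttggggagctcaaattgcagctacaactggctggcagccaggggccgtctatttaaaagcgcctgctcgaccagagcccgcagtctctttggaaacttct
The Igfbp2 window held 3 matches to GGGCGG, found at least once in 32.7% of 32851 such windows, and 1 to CACGTG, found in 6.02%. The Igfbp5 window held none of the 4. GC content was 67.2% and 58.8%, against a median of 52.4% over all windows. A second RefSeq window of Igfbp2 held none of the 4 either, and a match describes letters only.

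Igf1, Igfbp3 and Igfbp5 had their 3 lowest values in the same libraries, control 1 and mutant 2 and 4. Igf1 was 62.7 to 89.6 in these 3 libraries and 126 to 166 in the other 5. Igfbp3 was 290.1 to 354 in the same 3 and 411 to 653 in the others, and Igfbp5 was 1108 to 1269 against 1475 to 2199.9. The summed ameloblast markers were also lowest in these 3 libraries, at 759, 841 and 697, although of the 5 markers only 2, Amelx and Enam, had their 3 lowest values there. Of all 14854 genes tested, 11.7% had their 3 lowest values in this set of libraries, so that 3 of the 8 members stand beside a common pattern of the table.

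Igfbp2 followed the ameloblast markers at their upper end, with its 3 highest values in control 4, control 3 and mutant 3, the 3 libraries with the highest sum. The share of all genes with this pattern is not reported here, so that it may be common. In the 5 libraries without such high ameloblast values, Igfbp2 was 28.6 and 34.5 in the control and 27.9, 21.3 and 31.4 in the mutant group, a log2 fold change of -0.24 in limma (adjusted p = 0.987). Igfbp5 there was 1235 and 1916 against 1475, 1269 and 1108, a log2 fold change of -0.27 (limma adjusted p = 0.987). In a fit with the ameloblast level (mean log2 of Amelx, Ambn and Enam) as covariate, the log2 fold change of Igf1 became 0.35, that of Igfbp2 -0.26, that of Igfbp3 -0.17, that of Igfbp4 0.15 and that of Igfbp5 -0.22, and none of the 8 genes passed the threshold. The part of epithelial cells in these values was not tested.

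**Figure D3:**
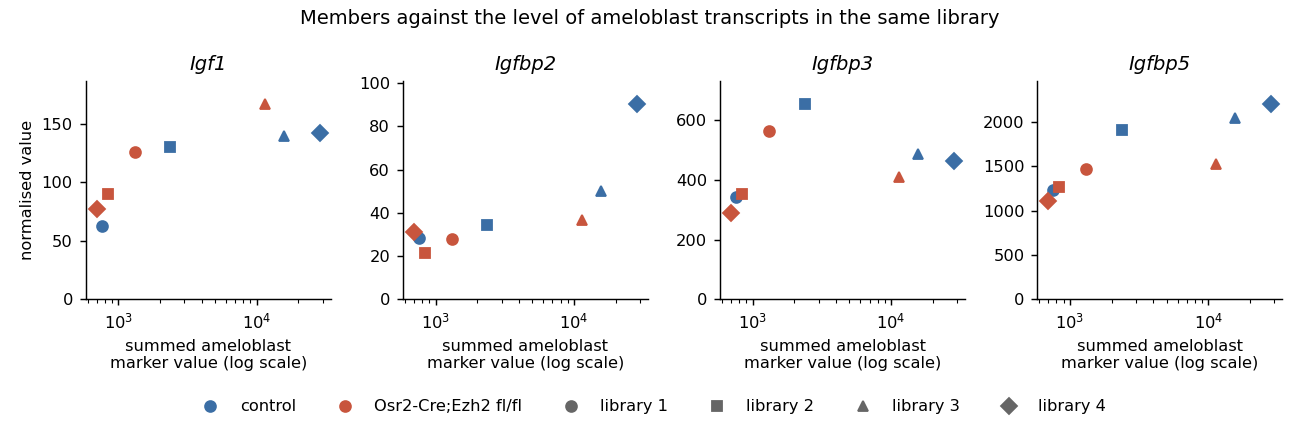
Normalised value of Igf1, Igfbp2, Igfbp3 and Igfbp5 (axes from 0) against the summed value of 5 ameloblast markers (log scale) in the same library, with colour for genotype and shape for library number. The 3 libraries at the left (sums of 697 to 841) hold the lowest Igf1, Igfbp3 and Igfbp5 values, and the 3 at the right (11435 to 28535) the highest Igfbp2 values.

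Markers of other cell types were set beside these values. The summed value of 6 general epithelial markers was 1801 to 3920 in the control and 1700.2 to 2369 in the mutant libraries, highest in control libraries 4 and 3, and all 6 had negative fold changes, with overlap and none past the threshold. The summed muscle markers were 38.3 in control library 4, the library with the highest Igfbp2 and Igfbp5 values, and 2.98 to 8.68 in the other 7. The part of either in the lower Igfbp2 and Igfbp5 means was not tested. The summed value of 5 endothelial markers was 317 to 356 in the control and 279 to 303 in the mutant libraries, without overlap. All 5 had negative fold changes, Cdh5 and Kdr did not overlap (over all genes tested, 8.53% did not), and none passed the threshold. The summed mural cell markers were 315 to 377 and 277 to 310.2, with 4 of 5 fold changes negative and Cspg4 positive (0.26). Rgs5 alone of these did not overlap, and none of the 5 passed. With the mean log2 level of the endothelial markers as a covariate, the log2 fold changes of Igf1 (0.61), Igfbp3 (0.42), Igfbp5 (0.050) and Igfbp7 (0.12) became positive, none of the 8 genes passed the threshold, and calls over all genes dropped to 5 higher and 0 lower. As the endothelial sums did not overlap between genotypes, this fit separates the covariate poorly from genotype, here and for the genes below. The part of endothelial and mural cells in the result was not tested. The summed odontoblast markers, most of which is Dspp, were 1946 to 3394 in the control and 1084 to 2740 in the mutant. Of these 5, 4 had negative fold changes (Dspp -1.13, Phex -0.98, Dmp1 -0.35 and Nes -0.24), Sost ran the other way without overlap (1.17 to 3.92 in the mutant against 0.581 to 0.791), and none passed the threshold in limma. Osteoblast and cartilage sums were higher in every mutant library. The summed osteoblast markers were 1109 to 1267 in the control and 1416 to 1865 in the mutant, and the summed cartilage markers 72.6 to 89.4 and 107 to 150. Of 5 osteoblast markers, Ibsp alone passed and did not overlap (log2 fold change 1.87, limma adjusted p = 0.00126), while Bglap (-0.40) and Bglap2 (-0.37) had negative fold changes. Called higher, against 1.56% of all genes, were also 1 of 9 dental mesenchyme markers (Lhx8, with 3 of the 9 fold changes negative), 1 of 3 follicle markers tested (Aspn, limma adjusted p = 0.0499) and 3 of 4 cartilage markers tested (Col2a1, Acan and Col9a1), and no marker of these lists was called lower. Of the 9 dental mesenchyme markers, Lhx8, Twist1 and Prrx1 did not overlap, nor did Aspn and those 3 cartilage markers. All of these were higher in the mutant group, and 8.53% of all genes did not overlap. The part of these cell types in the members' values was not tested.

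Other genes of the pathway were taken from lists of the ligands and receptors related to IGF1, carriers and proteases, the growth hormone axis, and intracellular signalling. Of 54 genes listed, 52 were in the table and 50 were tested. Of these, 2 passed the threshold as higher in the mutant group and 0 as lower, against 1.56% and 0.512% of all genes. At an unadjusted p under 0.05, 6 of 50 were higher and 6 lower, against 8.27% and 4.87% of all genes. The median log2 fold change of the 50 was -0.0059, beside 0.013 over all genes tested.

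Both genes that passed belong to the growth hormone axis, 2 of 7 genes of that list. Ghr, the growth hormone receptor, was 95.6, 86.7, 71.6 and 77.3 in the control and 100.4, 139, 138 and 126 in the mutant libraries. Every mutant library lay above every control, the nearest being mutant library 1 at 100.4 and control library 1 at 95.6. Ghr rose 1.52-fold in the ratio of means, a log2 fold change of 0.60 ± 0.12 (SE; limma adjusted p = 0.0440). Its call was lost in limma when control 2, 3 or 4 or mutant 2, 3 or 4 was left out (adjusted p = 0.102 to 0.159), while its log2 fold change stayed between 0.53 and 0.70 over all 8 such fits. It was lost too with the Xist covariate (limma adjusted p = 0.0596), the ameloblast covariate (0.0885), median-of-ratios scaling (0.0589), the fit without the trend (0.0546) and the filter at a value of 10 (0.0629). Socs2, a growth hormone target that dampens signalling by its receptor, was 29.0, 30.2, 27.9 and 30.1 in the control and 37.3, 39.3, 39.5 and 38.4 in the mutant. The groups were narrow and far apart, and Socs2 rose 1.32-fold, a log2 fold change of 0.39 ± 0.062 (SE; limma adjusted p = 0.0133). Its call was lost without control library 3 (limma adjusted p = 0.0732) and without mutant library 4 (0.0613), with a log2 fold change of 0.36 to 0.40 over all libraries left out. With the endothelial covariate the log2 fold change was 0.25 for Ghr (limma adjusted p = 1.00) and 0.36 for Socs2 (0.771). In the 5 libraries with low ameloblast values it was 0.40 for Ghr (limma adjusted p = 0.620) and 0.36 for Socs2 (0.293), with fewer libraries in the fit.

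Among the other genes of that axis, Stat5b, a transcription factor downstream of the growth hormone receptor, was 23.9 to 29.6 in the control and 26.3 to 37.8 in the mutant (log2 fold change 0.24, limma adjusted p = 0.459). Its log2 fold change was 0.16 without mutant library 2 and 0.12 with the ameloblast covariate, and with library weights Stat5b passed, at 0.37 (limma adjusted p = 0.00270). In all, 6 of 7 genes of the list had positive fold changes, beside 54.1% of all genes tested. None of the 4 other genes of the list passed the threshold. Growth hormone's target Igf1 is described above, with groups that overlapped.

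Among related ligands and receptors, Igf2, the fetal IGF, was 226, 545, 335 and 442 in the control and 534, 519.7, 731 and 412 in the mutant libraries. Its means were 387 ± 138 and 549 ± 133 (SD, n = 4), but control library 2 exceeded 3 of 4 mutant libraries (log2 fold change 0.55, interval -0.044 to 1.14, limma adjusted p = 0.436). Without control library 1 its log2 fold change was 0.31, and with library weights it was 0.10, while with the endothelial covariate it was 1.04 and with the ameloblast covariate 0.79, and in none of these fits did it pass. Igf2r, which clears IGF2, was 85.2 to 98.2 and 73.6 to 114 (log2 fold change 0.014, limma adjusted p = 0.982). The insulin receptor Insr was 54.6 to 62.2 in the control and 45.6 to 65.9 in the mutant, where libraries 1, 2 and 4 lay below all controls (log2 fold change -0.19, limma adjusted p = 0.565). Without mutant library 3 the log2 fold change was -0.31 (limma adjusted p = 0.0687), and with library weights Insr passed, at -0.37 (0.00181). With the ameloblast covariate it was -0.080 (limma adjusted p = 0.740).

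Of the carriers and proteases, 0 of 8 tested passed the threshold in limma, and at an unadjusted p under 0.05 there was 1 higher and 2 lower, against 8.27% and 4.87% of all genes. Pappa encodes a protease that cleaves IGFBP4 and so frees IGFs, and its values were 10.7, 9.20, 7.74 and 4.82 in the control and 3.32, 5.70, 3.79 and 6.17 in the mutant (log2 fold change -0.65, limma p = 0.0214, adjusted p = 0.258, exact permutation p = 0.0857). With the ameloblast covariate Pappa passed, at -0.92 (limma adjusted p = 0.0349), while with library weights it was -0.37 (0.0824) and with a pseudocount of 5 it was -0.42 (0.251). With the endothelial covariate it was -0.98 and did not pass. Stc1, whose product can inhibit pappalysins, was 6.14 to 8.33 in the control and 4.20 to 5.97 in the mutant, without overlap (log2 fold change -0.35, limma adjusted p = 0.264), and its log2 fold change was -0.22 both with library weights and with a pseudocount of 5. Adam12, a metalloprotease that can cleave IGF-binding proteins, was 20.5 to 33.6 in the control and 32.1 to 45.9 in the mutant (log2 fold change 0.60, limma adjusted p = 0.0962). Adam12 passed without mutant library 1, at 0.71 (limma adjusted p = 0.0487), and with library weights, at 0.52 (0.00616).

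Inside the cell, 0 of 32 signalling genes passed the threshold in limma, with 14 positive fold changes, and at an unadjusted p under 0.05 there were 3 higher and 4 lower, against 8.27% and 4.87% of all genes. The adaptor Irs1, which docks to the activated IGF1 receptor, was 63.1, 55.4, 38.9 and 44.5 in the control and 54.1, 102, 116 and 80.3 in the mutant libraries. Mutant libraries 2 to 4 lay above all controls and library 1 within their range (log2 fold change 0.76, limma p = 0.00894, adjusted p = 0.160, exact permutation p = 0.0857). Without mutant library 1 it passed, with a log2 fold change of 0.97 (limma adjusted p = 0.0353), and with library weights at 0.76 (0.00375). With the endothelial covariate it was 0.10, and in the 5 libraries with low ameloblast values 0.36. The kinase genes Mapk3 (log2 fold change -0.18) and Gsk3b (-0.22) had the next smallest p-values of that list, with a limma adjusted p of 0.229 each. Mapk3 was 71.5 to 76.7 in the control and 62.9 to 71.3 in the mutant, without overlap, while Gsk3b overlapped. With library weights both passed, Mapk3 at -0.23 (limma adjusted p = 0.00292) and Gsk3b at -0.20 (0.0113), and with the endothelial covariate Mapk3 was -0.12.

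**Figure D4:**
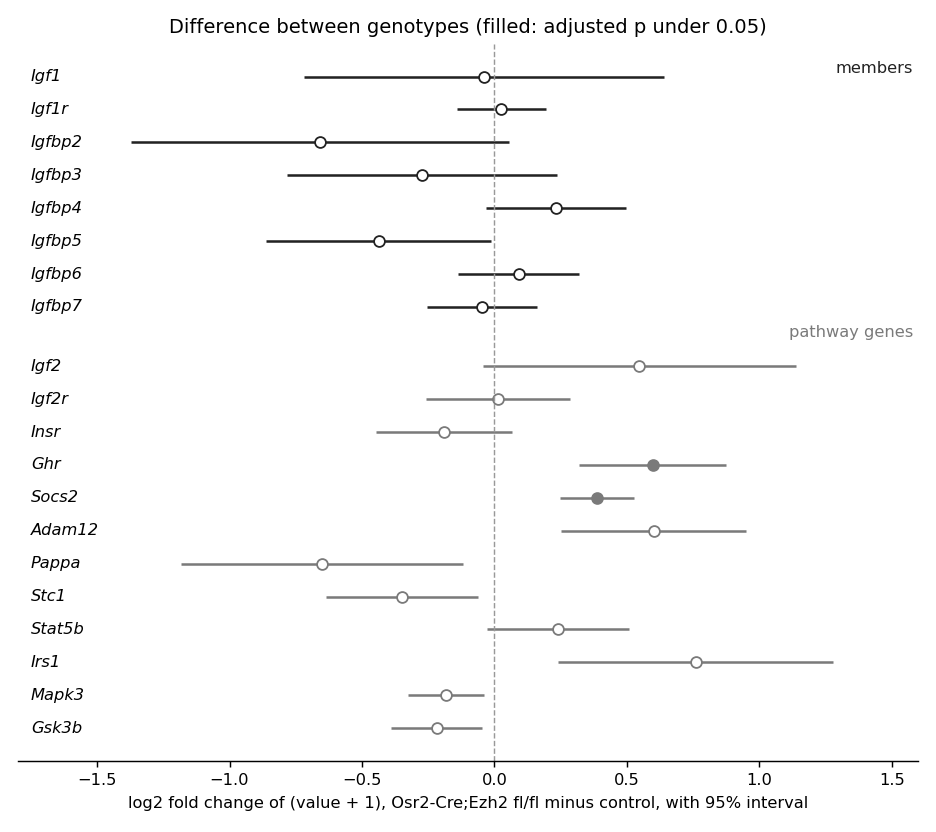
Log2 fold change of (value + 1), Osr2-Cre;Ezh2 fl/fl (mutant) minus control, with its 95% interval from limma, for the 8 genes and for 12 named genes of the pathway; filled points have an adjusted p under 0.05. The intervals of 7 of the 8 members cross 0, that of Igfbp5 ends at -0.013, and Ghr and Socs2 are the filled points.

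**Figure D5:**
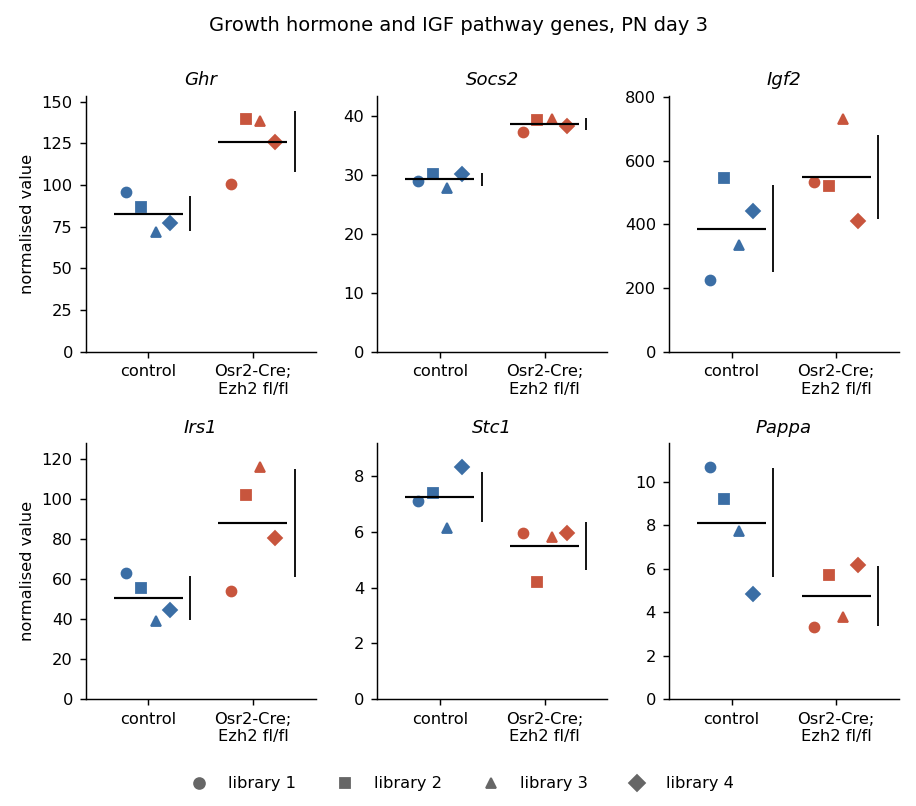
Normalised value (axes from 0) of Ghr, Socs2, Igf2, Irs1, Stc1 and Pappa in molar mesenchyme of control and mutant (Osr2-Cre;Ezh2 fl/fl) mice, with marker shape for library number, a line at the group mean and a vertical line for ± 1 SD (n = 4). Ghr and Socs2 were higher in every mutant library and Stc1 lower in every mutant library, while the Igf2, Irs1 and Pappa groups overlap.

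For each of Igf1, Igf1r, Igfbp2, Igfbp4, Igfbp5 and Igfbp7, the 3 genes whose log2 values ran most nearly parallel over the 8 libraries were found among the other 14853 genes tested. They were Itgbl1, Pstpip1 and C2 for Igf1 (Pearson r of 0.98 to 0.99), Adamtsl1, Zfp652 and Slu7 for Igf1r (0.98) and Tmem102, Gyg and Grb2 for Igfbp2 (0.98). For Igfbp4 they were Eef2k, Siae and Sept8 (0.98 to 0.99), for Igfbp5 Gnb5, Atp6v1b2 and Tinagl1 (0.96 to 0.97) and for Igfbp7 Slc9a3r2, Gm19680 and Vat1 (0.94 to 0.98). None of these genes passed the threshold between genotypes, with limma adjusted p-values of 0.282 to 0.977. Such an r describes 8 libraries only and was not tested, and none of the genes named is itself a member.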

How the data were processed

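Molar mesenchyme RNA of 4 control and 4 Osr2-Cre;Ezh2 fl/fl samples was sequenced. The study's methods give 4 samples a group but also speak of 3 pairs without naming them, and all 8 deposited libraries were used unpaired. By the study's methods, the authors mapped trimmed single-end reads with TopHat to mm10 and normalised by RPKM, while the submitters' processing notes name STAR 2.5.3a, CASAVA 1.8.2 and Partek. What was deposited was handled as a signal, because the values carry no length factor and are not whole reads (57.4% to 62.8% of low values were whole multiples of the library's smallest value, within 0.01). Their 75th percentiles lie between 38.455 and 38.463, so that values compare within a gene across libraries. The table holds 0 other columns of sample values. No library was left out.

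Genotypes were compared in R 4.3.3 by limma 3.58.1 (a linear model with trended moderation) after a log2(value + 1) transform. A gene was kept where 4 or more of the 8 libraries reached a value of 1, which left 14854 genes, and p-values were adjusted over all of these by Benjamini-Hochberg. A fold change on this scale understates that of low genes. The fit was tested on simulated data. Single genes were also tested by the two-sided exact permutation test over 70 arrangements. Members and lists were chosen with earlier results of these data known. Named pathway genes are Igf2, Igf2r and Insr, those past the threshold, and the 3 smallest p-values of each list. The 3 genes most parallel to a member, by Pearson r over the 8 libraries, are not reported here for Igfbp3 and Igfbp6. Igfbp1 and Adam28 were not analysed here, and Insrr and Igfals were below the filter. Coordinates and lengths come from GENCODE M21 on GRCm38, the same build as mm10, and upstream windows from RefSeq, with Python 3.11.15. Alternatives covered pseudocount, filter, scaling, moderation, library weights, the replicate block, covariates for ameloblast, endothelial and Xist levels, and each library left out. The fit on the 5 libraries with low ameloblast values was chosen after seeing the data.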

Additional observations from a re-analysis of the deposited data

Results flagged for a closer look

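In 40 groups of 4 libraries examined for a library apart from its group (8 members and 12 named pathway genes in both genotypes), 2 were found, and chance alone gives about 1 in 20. Igf1 in control library 1 was 62.7, against 129.8 to 142 in the other 3 controls. Stc1 in mutant library 2 was 4.20, against 5.81 to 5.97 in the other 3 of that genotype.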

How the results depend on the processing

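With 4 libraries a group, differences under about 0.35 (Igf1r) to 1.48 (Igfbp2) on the log2 scale would not have been called. Igfbp6 has no value under the filter at a value of 10. The count of members called was 0 in every alternative except library weights. Library weights gave 2165 genes higher and 1875 lower, 14 pathway genes and 4 members: Igf1 (-0.64), Igfbp3 (-0.78), Igfbp4 (0.28) and Igfbp5 (-0.75), with Igf1r at -0.023 and Igfbp6 at -0.026. That fit weights mutant library 4 at 9.66. Same-numbered libraries of the genotypes did not deviate together (r of -0.43 to 0.22, and 1 of 8 libraries correlated best with its own number), so the numbers were not taken to pair them. With the replicate block, 64 genes were higher and 9 lower, no call of a member changed, and 0 pathway genes passed (Ghr adjusted p = 0.173, Socs2 0.150, limma). The endothelial covariate gave 5 higher, 0 lower and 0 pathway genes, with Igf1 at 0.61, Igf1r -0.035, Igfbp3 0.42, Igfbp5 0.050 and Igfbp7 0.12. That covariate is poorly separated from genotype, as the marker sums did not overlap. The ameloblast covariate turned Igf1 (0.35) and Igf2r (-0.019), ended the call of Ghr (0.54) and called Pappa (-0.92). The 5 libraries with low ameloblast values gave 1 higher, 0 lower and 0 pathway genes, with Igf1 at 0.078 and Igf1r at -0.024, in a fit with fewer libraries. The filter at a value of 10 gave 88 higher and 31 lower. It left 1 pathway gene, as did the Xist covariate, limma without the trend and median-of-ratios scaling (Igf2r -0.0090). Beyond the fits whose construction shows it, the cause was not tested.

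With each library left out in turn, genes called ranged from 108 to 292 higher and 20 to 92 lower, and pathway genes from 0 to 4. Log2 fold changes ranged from -0.32 to 0.13 for Igf1, -0.030 to 0.065 for Igf1r, -0.090 to 0.027 for Igfbp7, -0.093 to 0.11 for Igf2r, -0.88 to -0.34 for Igfbp2, -0.45 to -0.12 for Igfbp3, 0.13 to 0.30 for Igfbp4, -0.62 to -0.34 for Igfbp5, 0.043 to 0.15 for Igfbp6, 0.31 to 0.74 for Igf2 and -0.31 to -0.13 for Insr.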
